A study of Mus musculus with 12 samples.

Results

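The 46 genes described here encode chromatin regulators linked to neural crest and craniofacial defects. They were taken by gene symbol from a named list, and all 46 were found among the 24391 symbols of the files. They comprise 9 CHD remodelling ATPases, 4 ATPases of the SWI/SNF and ISWI families, 8 further SWI/SNF subunits and 9 ARID genes. The others are 4 genes of the core of Polycomb repressive complex PRC2, 3 genes of acetyltransferases and the NSL complex, the cohesin loader Nipbl, 2 H3K36 methyltransferases, 3 DNA methyltransferases and 3 TET dioxygenases. RNA was sequenced at stage E13.5 from the palatal shelves of C57BL/6 mouse embryos, which grow out of the upper jaw and fuse into the palate. The 4 groups of 3 libraries were anterior palate after tamoxifen, anterior palate of controls, posterior palate after tamoxifen and posterior palate of controls. The series is about cleft palate in mice given tamoxifen, a drug that binds the oestrogen receptor and acts for or against it depending on the tissue. Dose, route and time of treatment are not stated in the sample labels, nor is it stated whether a library pools several embryos or whether replicates are separate litters. The p-values therefore measure only the spread between these samples.

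Chromatin remodellers use ATP to slide, evict or exchange nucleosomes. SWI/SNF complexes, called BAF or PBAF in mammals, carry either Smarca4 or Smarca2 as their motor, ISWI complexes carry Smarca5 or Smarca1, and Chd3, Chd4 and Chd5 are motors of the NuRD complex. PRC2 methylates histone H3 at lysine K27, Crebbp and Ep300 acetylate histones, Setd2 and Nsd1 methylate lysine K36, and DNA methyltransferases and TET enzymes write and oxidise the methyl mark on cytosine. Many of these genes are sensitive to dosage in the neural crest, the cell population that gives rise to most of the palatal mesenchyme. In humans, CHD7 is the gene of CHARGE syndrome, NIPBL of Cornelia de Lange syndrome, CREBBP and EP300 of Rubinstein-Taybi syndrome, ARID1B of Coffin-Siris syndrome and NSD1 of Sotos syndrome.

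A library held between 39.4 M and 73.0 M counts, and the lowest count of any of the 46 genes in any library was 160. Neural crest and mesenchyme markers summed to between 3010 and 3290 CPM (counts relative to library size, scaled by the TMM method) in anterior libraries. In posterior libraries they summed to between 2350 and 2720 CPM. Skeletal muscle markers summed to between 9.51 and 35.4 CPM in anterior libraries, against 733 to 1200 CPM in posterior libraries. Over all libraries, endothelium markers summed to between 576 and 700 CPM, leukocyte markers to between 68.4 and 101 CPM, erythroid markers to between 609 and 1260 CPM, and neuron and glia markers to between 131 and 255 CPM. No marker of the 9 lists used was at 0 in all libraries. A property of the libraries bears on every result given here. Across 13042 genes, the deviation of a gene from its mean over the 12 libraries correlated with transcript length with a Spearman coefficient of 0.35 to 0.49 in the tamoxifen libraries, against -0.61 to -0.24 in the control libraries. The most negative value belonged to control anterior replicate 3. The sign separated all tamoxifen from all control libraries, so an effect of the drug on long transcripts and a difference in library make-up cannot be told apart. The 46 genes are long, with a median transcript of 6536 bases against 3067 bases for all tested genes with a length, and 34 of them lie in the longest quartile by length (4605 bases or more). Each comparison is therefore given on the TMM scale and again after a trend with length and GC content was removed from each library.

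To show the sequence context of genes that changed, promoters were taken from RefSeq (build GRCm38.p6), which matched 36 of the 46 genes with 47 windows of 250 bases before a transcription start. The 4 windows printed belong to genes called in at least 1 tamoxifen comparison and lie outside annotated gene bodies and exons, for which the Smarcb1 window was shortened to 247 bases. Chd6 and Smarca1 rose in both parts of the palate on the TMM scale, Smarcb1 fell in both, and Ezh1 fell in the anterior part. CpG dinucleotides are in capitals, and each sequence is on the strand of the gene, which is the minus strand for all 4.
Chd6 chr2:161109087-161109336: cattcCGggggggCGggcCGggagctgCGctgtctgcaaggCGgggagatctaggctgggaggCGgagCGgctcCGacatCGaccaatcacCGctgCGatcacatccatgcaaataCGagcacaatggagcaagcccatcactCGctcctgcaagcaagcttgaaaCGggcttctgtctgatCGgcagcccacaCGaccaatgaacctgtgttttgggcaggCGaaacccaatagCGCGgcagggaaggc
Smarca1 chrX:47892614-47892863: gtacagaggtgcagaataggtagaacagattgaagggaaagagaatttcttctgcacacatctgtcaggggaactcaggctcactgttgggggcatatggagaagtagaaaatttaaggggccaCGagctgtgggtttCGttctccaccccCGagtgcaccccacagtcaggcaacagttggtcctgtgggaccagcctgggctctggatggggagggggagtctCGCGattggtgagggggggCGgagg
Smarcb1 chr10:75921618-75921864: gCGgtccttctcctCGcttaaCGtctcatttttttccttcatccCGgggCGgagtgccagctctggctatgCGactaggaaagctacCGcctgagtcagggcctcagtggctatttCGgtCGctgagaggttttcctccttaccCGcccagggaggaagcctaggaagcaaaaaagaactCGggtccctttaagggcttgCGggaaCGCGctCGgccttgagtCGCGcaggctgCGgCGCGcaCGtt
Ezh1 chr11:101226464-101226713: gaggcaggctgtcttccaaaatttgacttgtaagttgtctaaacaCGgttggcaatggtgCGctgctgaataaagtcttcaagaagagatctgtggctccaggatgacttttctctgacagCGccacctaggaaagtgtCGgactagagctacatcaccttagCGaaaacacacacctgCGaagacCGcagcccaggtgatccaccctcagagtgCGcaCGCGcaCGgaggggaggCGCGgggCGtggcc

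The windows hold 19 CpG dinucleotides in Chd6, 6 in Smarca1, 21 in Smarcb1 and 14 in Ezh1. The median over the 47 windows of the chromatin regulators was 21, against 6 over the 32851 windows of the table. A GC box (GGGCGG on either strand) lay in 36 of the 47 windows (76.6%), against 32.7% of all windows, and Ezh1 is the only printed window without it. The palindromic oestrogen response element lay in 0 of the 47 windows and in 0.0639% of all windows. The NRF1 site lay in 0 of the 47 windows and in 0.782% of all windows. Each motif was searched on both strands and counted on its own. A match describes the letters of the window, and the absence of a match covers only these 250 bases.

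In the anterior palate, 27 of the 46 genes rose after tamoxifen on the TMM scale, 4 fell and 15 were not called (edgeR, Benjamini-Hochberg adjusted p under 0.05 over 15958 genes). Among all tested genes 25.6% were called higher and 24.0% lower, 49.7% in all. The median log2 fold change was 0.39 over the 46 genes, against -0.02 over all genes with a length. The values of the 3 tamoxifen and 3 control libraries did not overlap for 35 of the 46 genes, against 56.5% of all genes. In bulk tissue, a change in the share of a cell type and a change in RNA per cell cannot be told apart. Among all genes of the longest quartile by length 61.3% were called higher, and of the 34 chromatin regulators there 26 were. In the shortest quartile by length, where 45.4% of all genes were called lower, Smarcb1 and Smarcd3 were the 2 members and both fell.

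After removal of the length and GC trend, 7 of the 46 genes were higher in the anterior palate after tamoxifen (Arid5b, Chd9, Ep300, Smarca2, Smarcd2, Tet1 and Tet3) and 6 were lower (Arid4a, Chd7, Chd8, Dnmt1, Ezh1 and Smarca4). In that fit 13.7% of all genes were called higher and 14.6% lower, 28.3% in all, and the median log2 fold change was -0.03 over the 46 genes and 0.0 over all genes. Of the 31 calls on the TMM scale, 7 kept their direction, 22 were lost and 2 (Chd8 and Arid4a) turned round, while 4 calls were new. Tet1 and Arid4a were called in only 4 of 12 fits that each left out 1 library with the trend removed. The other 11 genes were called in all 12. Smarcd2, Tet3 and Arid4a lost their calls where only a length trend was removed. Removal of a length trend alone gave 12 genes higher and 14 lower, against 19.1% and 18.9% of all genes. The 12 were Arid5b, Chd1, Chd9, Ep300, Ezh2, Nipbl, Pbrm1, Smarca1, Smarca2, Suz12, Tet1 and Tet2. The 14 were Arid1a, Arid5a, Chd3, Chd4, Chd5, Chd7, Chd8, Dnmt1, Ezh1, Smarca4, Smarcb1, Smarcc2, Smarcd1 and Smarcd3. Proliferation markers summed to between 2290 and 2370 CPM in tamoxifen anterior libraries and between 2130 and 2150 CPM in control anterior libraries, with 3 of 12 called higher and 4 lower. Erythroid markers summed to between 609 and 982 CPM and between 857 and 1260 CPM in the same groups, with 0 of 7 tested called higher and 2 lower. Leukocyte markers summed to between 72.6 and 101 CPM against 68.4 to 81.6 CPM, with 4 of 10 higher and 0 lower, and neuron and glia markers to between 148 and 174 CPM against 131 to 155 CPM, with 4 of 12 higher and 1 lower. Endothelium and epithelium markers moved both ways, with 5 of 10 higher and 4 lower and 5 of 12 higher and 2 lower. The part of these cell types in the results was not tested.

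**Figure D1:**
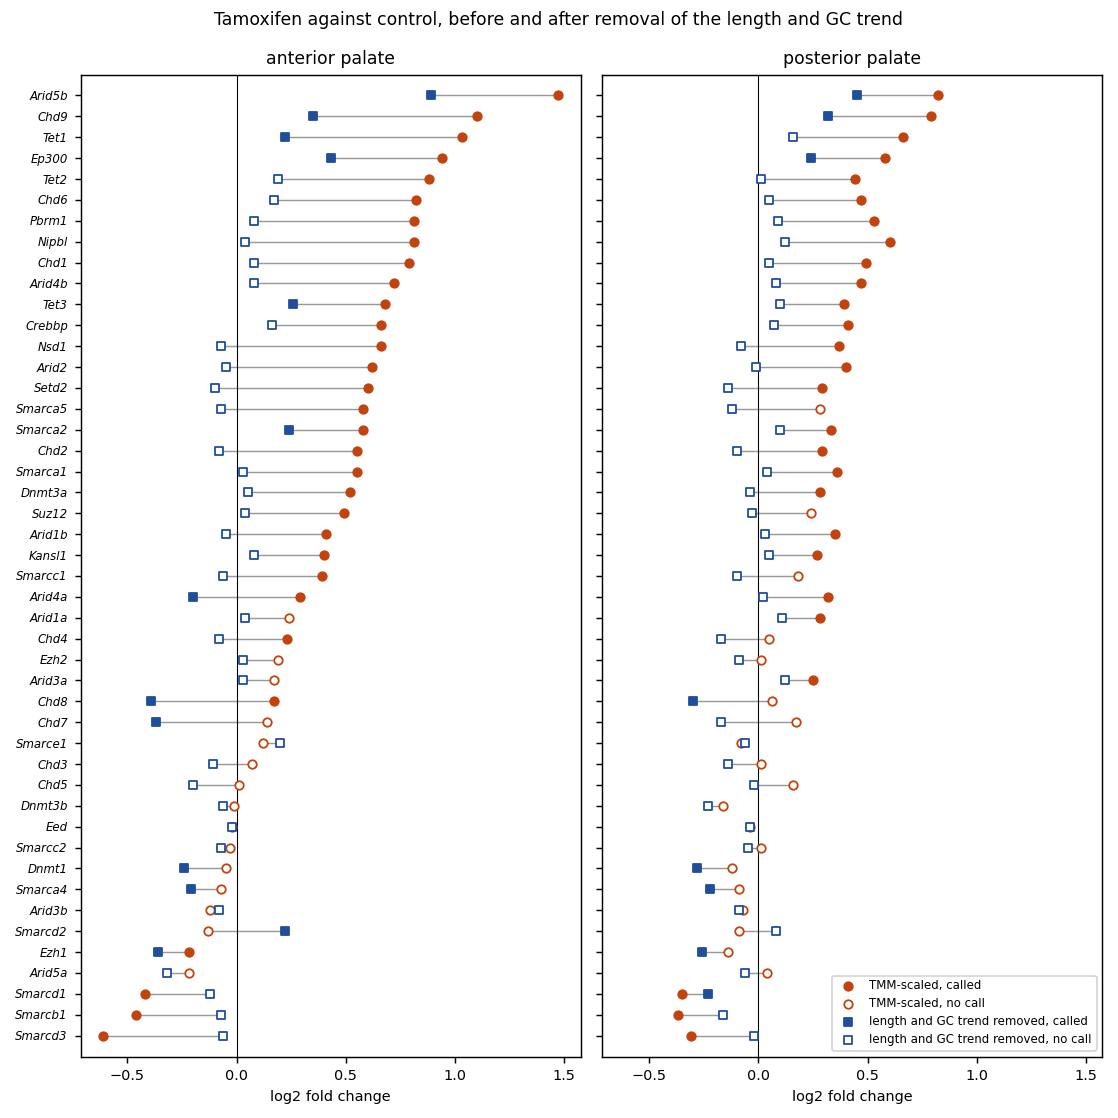
Log2 fold change (x axis) of each of the 46 chromatin regulator genes (y axis, ordered by the anterior value on the TMM scale) for tamoxifen against control in the anterior (left) and posterior (right) palate. Circles are on the TMM scale and squares after removal of the length and GC trend, filled where edgeR called the gene; most circles lie to the right of 0, and after removal 7 genes are higher and 6 lower in the anterior palate, 3 higher and 5 lower in the posterior palate.

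In the posterior palate, 24 of the 46 genes rose after tamoxifen on the TMM scale, 3 fell and 19 were not called. All tested genes gave 17.3% higher and 11.7% lower calls, 29.0% in all. The median log2 fold change was 0.27 over the 46 genes, against 0.02 over all genes with a length. Tamoxifen and control values did not overlap for 30 of the 46 genes, against 48.0% of all genes. Of the 34 chromatin regulators in the longest quartile by length 24 rose, where 46.0% of all genes of that quartile were called higher. Removal of the length and GC trend left Arid5b, Chd9 and Ep300 higher and Chd8, Dnmt1, Ezh1, Smarca4 and Smarcd1 lower, against 6.42% and 8.63% of all genes, 15.1% in all. A length trend alone, once removed, gave 2 genes higher and 8 lower, against 6.7% and 8.45% of all genes. Without control posterior replicate 3, and likewise without tamoxifen posterior replicate 3, only 1 gene (Chd9) was still called higher with the trend removed. Cartilage and bone markers summed to between 1550 and 2190 CPM in tamoxifen posterior libraries and between 2320 and 2470 CPM in control posterior libraries, with 0 of 10 called in either direction. Skeletal muscle markers summed to between 888 and 1200 CPM and between 733 and 829 CPM in the same groups, with 1 of 12 called higher. Epithelium markers summed to between 598 and 782 CPM after tamoxifen and between 547 and 609 CPM in posterior controls, with 5 of 12 higher and 0 lower. Endothelium markers summed to between 652 and 700 CPM against 585 to 630 CPM, with 5 of 10 higher and 2 lower. Neuron and glia markers summed to between 192 and 255 CPM against 162 to 176 CPM, with 4 of 12 higher and 0 lower, and leukocyte markers to between 78.5 and 99.4 CPM against 74.0 to 76.7 CPM, with 3 of 10 higher and 0 lower. Erythroid markers summed to between 711 and 764 CPM against 799 to 939 CPM, with 0 of 7 tested called. Of the proliferation markers, 0 of 12 were higher and 4 lower. Whether these cell types had a part in the posterior results was not tested.

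The 2 tamoxifen comparisons share no library. On the TMM scale, 22 genes were called higher in both parts of the palate, which is 81.5% of those higher in the anterior and 91.7% of those higher in the posterior part. Over all tested genes, 15.4% were called higher in both parts, which is 59.9% of the anterior and 88.7% of the posterior calls, and in the longest quartile by length 43.3% were, which is 70.6% and 94.0%. Smarcb1, Smarcd1 and Smarcd3 fell in both, against 10.7% of all genes. After removal of the trend, Arid5b, Chd9 and Ep300 were higher and Chd8, Dnmt1, Ezh1 and Smarca4 lower in both parts, against 4.66% and 6.82% of all genes. In the longest quartile by length these shares were 8.72% and 11.5%. The posterior call of Ep300 was lost where a length trend alone was removed (log2 0.19, adjusted p = 0.081). That of Ezh1 was lost where the longest transcript of any kind gave the length (log2 -0.21). The log2 fold change on the TMM scale was larger in the anterior part for 33 of the 46 genes (71.7%), against 48.4% of all genes and 73.8% of the longest quartile by length. No gene of the list passed the test of the difference between the parts itself, the interaction, and neither did any of the 15958 genes (0.0%) with edgeR. An unadjusted p under 0.05 in the edgeR test was reached by 11 of the 46 genes, against 13.2% of all genes (2110). The log2 difference between the parts went with transcript length, at a Spearman coefficient of 0.37 over all genes and 0.59 over the 46. DESeq2 called 179 genes (1.12%) in the interaction, 0 of them on the list.

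**Figure D2:**
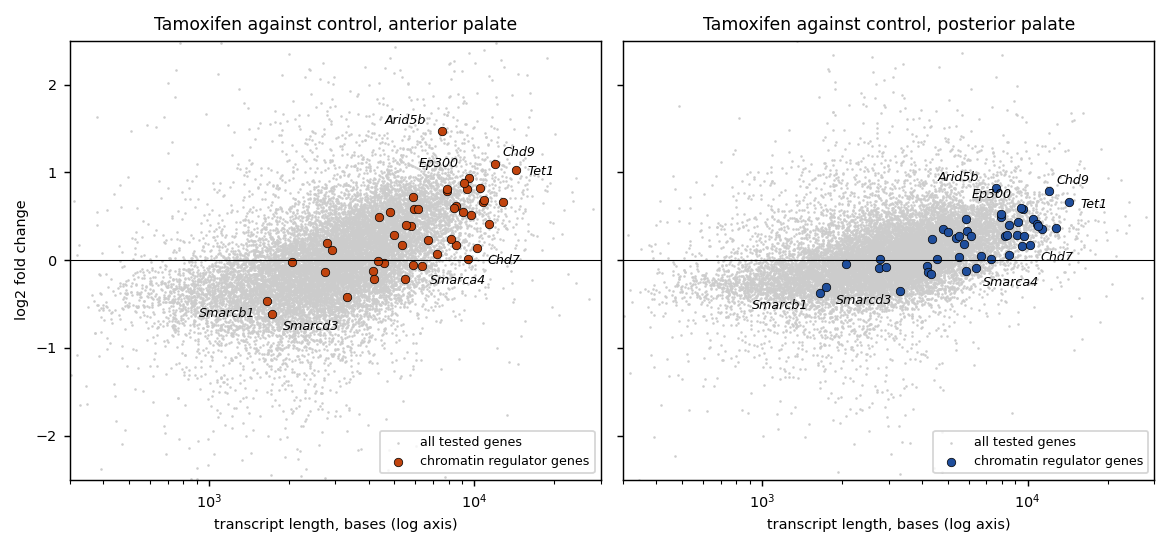
Log2 fold change on the TMM scale for tamoxifen against control (y axis) by transcript length in bases (x axis, log scale) in the anterior (left) and posterior (right) palate. Grey points are all tested genes with a length and coloured points the 46 chromatin regulators, which rise with length along the grey cloud, with Arid5b in its upper part; genes beyond the plotted range are not drawn.

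Across the 46 genes, the log2 fold change on the TMM scale went with transcript length with a Spearman coefficient of 0.70 in the anterior and 0.72 in the posterior comparison, and with GC content at -0.71 and -0.65. Over 15844 genes the length coefficients were 0.56 and 0.50. These are descriptions, since the genes share the same libraries and length itself goes with GC content. The median deviation of the 46 genes from their own means was between 0.11 and 0.28 on the log2 scale in the 6 tamoxifen libraries and between -0.25 and -0.08 in the 6 control libraries. After the trend was removed it lay between 0.01 and 0.16 in anterior and between -0.08 and -0.02 in posterior libraries. The libraries then separated by part of the palate and no longer by treatment. The trend was fitted in each library, so the removal itself takes out a difference that goes with length.

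**Figure D3:**
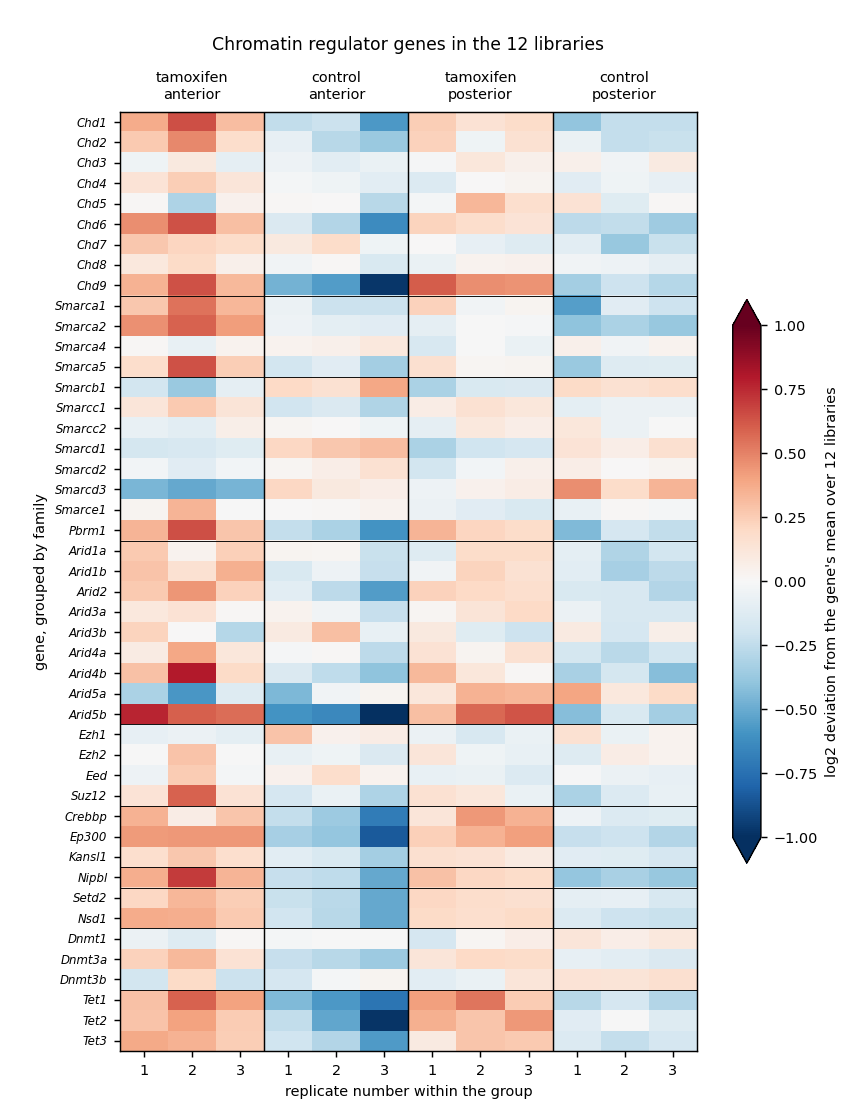
Log2 deviation of each gene from its mean over the 12 libraries on the TMM scale (colour), with the 46 genes down the page by family and the 3 replicates of each of the 4 groups across. Tamoxifen libraries are mostly red and control libraries mostly blue, most deeply in control anterior replicate 3. Smarcb1 and Smarcd1 show the opposite, and so does Smarcd3 except in tamoxifen posterior libraries (-0.051, 0.046 and 0.074). The colour scale saturates at 1 in either direction.

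Among the CHD ATPases, 6 of 9 rose in the anterior and 4 of 9 in the posterior palate on the TMM scale, and 0 fell. All 9 lie in the longest quartile by length, where 61.3% of all genes were called higher in the anterior and 46.0% in the posterior palate. Chd9, a remodeller of the same subgroup as Chd6, Chd7 and Chd8, had the largest change of the family. It lies on chromosome 8 (GRCm38.p6, 90828302 to 91054516). Chd9 stood at 80.7, 98.8 and 79.6 CPM in tamoxifen anterior libraries, against 45.6, 42.9 and 32.2 CPM in control anterior libraries. Posterior libraries had 96.9, 87.9 and 87.0 CPM after tamoxifen and 50.1, 54.8 and 52.0 CPM in controls. No tamoxifen value fell as low as a control value. The fold was 2.15 in the anterior part (log2 1.10, SE 0.11, adjusted p = 3.1e-06) and 1.73 in the posterior part (log2 0.79, SE 0.11, adjusted p = 0.00037). The folds after removal were 1.27 (adjusted p = 0.00065) and 1.25 (adjusted p = 0.0033). Chd9 was called in every one of the 12 fits without 1 library, on both scales and in both parts.

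Chd7 and Chd8 gave smaller changes on the TMM scale than Chd9. The transcripts of Chd7, Chd8 and Chd9 lie in the longest quartile by length, with 10216, 8509 and 12008 bases. Their GC content is 51.39%, 49.39% and 45.12%. Chd8, a remodeller whose human homologue is an autism gene, stood at 218, 231 and 211 CPM in tamoxifen anterior libraries and at 198, 205 and 183 CPM in control anterior libraries. That small rise (log2 0.17, SE 0.07, adjusted p = 0.044) was called in only 3 of the 12 fits without 1 library. After removal Chd8 stood at 187, 202 and 183 CPM after tamoxifen against 237, 250 and 260 CPM in controls, so that the groups separated the other way (log2 -0.39, adjusted p = 5.7e-05). In the posterior palate the same holds, with 166, 174 and 175 CPM after tamoxifen and 217, 207 and 209 CPM in controls after removal (log2 -0.30, adjusted p = 0.0019), and no call on the TMM scale (log2 0.06). Chd7, the gene of CHARGE syndrome, was not called on the TMM scale in either part (log2 0.14 anterior, 0.17 posterior). With the trend removed it was lower in the anterior palate after tamoxifen, at 46.8, 47.7 and 44.8 CPM against 56.9, 62.0 and 61.5 CPM (log2 -0.37, adjusted p = 0.0012). The posterior values overlapped, and the log2 fold change of -0.17 was not called (adjusted p = 0.13).

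Chd6 rose 1.76-fold in the anterior and 1.38-fold in the posterior palate on the TMM scale. Chd1, which binds methylated lysine K4 of histone H3, rose 1.73-fold and 1.40-fold, and Chd2 rose 1.46-fold and 1.23-fold, the posterior call of Chd2 being kept in 6 of the 12 fits without 1 library. After removal the log2 fold changes of these 3 genes ranged from -0.10 to 0.17, none of them called. The NuRD motor Chd4 rose in the anterior palate (log2 0.23, adjusted p = 0.013) but not after removal (log2 -0.08). Chd3, the most abundant of the 46 genes per transcript length, gave log2 fold changes of 0.07 and 0.01 and no call on either scale. Where a length trend alone was removed, it was lower in both parts (log2 -0.45 and -0.32), as was Chd4 (log2 -0.24 and -0.26). Chd5, mainly known from neurons, was the scarcest, and its levels of 5.13 to 6.68 CPM after tamoxifen and 5.25 to 6.54 CPM in control anterior libraries overlapped.

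The motors of SWI/SNF differed from each other. Smarca2 (BRM) stood at 390, 427 and 380 CPM in tamoxifen anterior libraries, against 274, 266 and 262 CPM in control anterior libraries, and the groups were far apart. It rose 1.49-fold there (log2 0.58, SE 0.07, adjusted p = 6.7e-06) and 1.26-fold in the posterior palate (adjusted p = 0.0026). Its anterior level was still 1.18-fold higher after removal (adjusted p = 0.006), while the posterior log2 fold change of 0.10 was not called. Smarca4 (BRG1), the alternative motor, stood at 473, 446 and 481 CPM after tamoxifen and at 481, 486 and 505 CPM in control anterior libraries, where the highest tamoxifen library and the lowest control library are equal to 3 digits. It was not called on the TMM scale in either part (log2 -0.07 and -0.09). After removal it was lower with tamoxifen in both, with log2 fold changes of -0.21 (adjusted p = 0.0047) and -0.22 (adjusted p = 0.0088). Without any 1 of the 12 libraries these calls of Smarca4 remained. The ISWI motors Smarca5 (SNF2H) and Smarca1 (SNF2L) rose 1.49-fold and 1.47-fold in the anterior palate on the TMM scale, and Smarca1 rose 1.28-fold in the posterior palate. That posterior call was lost without control posterior replicate 1 or tamoxifen posterior replicate 1. After removal neither was called, with log2 fold changes between -0.12 and 0.04.

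Of the 8 further SWI/SNF subunits, Pbrm1 and Smarcc1 rose and Smarcb1, Smarcd1 and Smarcd3 fell in the anterior palate on the TMM scale. Pbrm1, the bromodomain subunit that defines PBAF, rose 1.75-fold in the anterior and 1.45-fold in the posterior palate, and Smarcc1 (BAF155), a scaffold of the core, rose 1.31-fold in the anterior palate. Smarcd3 (BAF60C), a variant subunit known from heart and skeletal muscle, stood at 55.5, 53.6 and 55.4 CPM in tamoxifen anterior libraries, against 88.6, 82.0 and 79.9 CPM in control anterior libraries. In the posterior palate it stood at 73.9, 79.0 and 80.6 CPM after tamoxifen and at 106, 87.0 and 97.0 CPM in controls. Every tamoxifen value was below every control value of the same part. The log2 fold changes were -0.61 (SE 0.08, adjusted p = 1.5e-05) and -0.31 (SE 0.08, adjusted p = 0.0076), and the posterior call was lost without control posterior replicate 1. Skeletal muscle markers summed to between 9.51 and 14.4 CPM in tamoxifen anterior libraries and between 13.2 and 35.4 CPM in control anterior libraries. Of these markers, 1 of 12 was called higher and 5 lower. In the posterior palate, where Smarcd3 also fell, they summed to 888 to 1200 CPM after tamoxifen against 733 to 829 CPM in controls. There 1 of 12 was called higher and 0 lower. The part of skeletal muscle in the fall of Smarcd3 was not tested. Smarcb1 (SNF5), a core subunit lost in rhabdoid tumours, stood at 130, 114 and 138 CPM against 170, 164 and 193 CPM in the anterior and at 119, 133 and 134 CPM against 169, 164 and 166 CPM in the posterior palate, again without overlap.

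Smarcb1 and Smarcd3 are the shortest of the 46 transcripts, with 1660 and 1735 bases, and with the length and GC trend removed neither was called in either part. Their log2 fold changes were then -0.07 and -0.06 in the anterior and -0.16 and -0.02 in the posterior palate. That loss depends on how the trend was defined. Where a length trend alone was removed, Smarcb1 was lower in both parts (log2 -0.19, adjusted p = 0.047, and -0.23, adjusted p = 0.041) and Smarcd3 in the anterior part (log2 -0.35, adjusted p = 0.0022). Where the longest transcript of any kind gave the length, Smarcb1 was lower by 0.96 and 0.69 on the log2 scale in the anterior and posterior palate, and Smarcd3 by 0.26 in the anterior palate, all called. For Smarcb1 these falls are larger than those on the TMM scale without removal (log2 -0.46 and -0.37). Smarcd1 (BAF60A) fell to 123, 124 and 127 CPM in tamoxifen anterior libraries, against 160, 168 and 172 CPM in control anterior libraries. Its posterior level fell on both scales, by 0.35 on the log2 scale without and by 0.23 with removal of the trend (adjusted p = 0.0015 and 0.0089). Smarcd2 (BAF60B) was not called on the TMM scale, and with the trend removed it was higher in the anterior palate, at 143, 150 and 142 CPM against 125, 125 and 124 CPM (log2 0.22, adjusted p = 0.0019), but not where a length trend alone was removed (log2 -0.03, adjusted p = 0.76). Smarcc2 and Smarce1 were not called in either part on the TMM scale or with the length and GC trend removed.

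**Figure D4:**
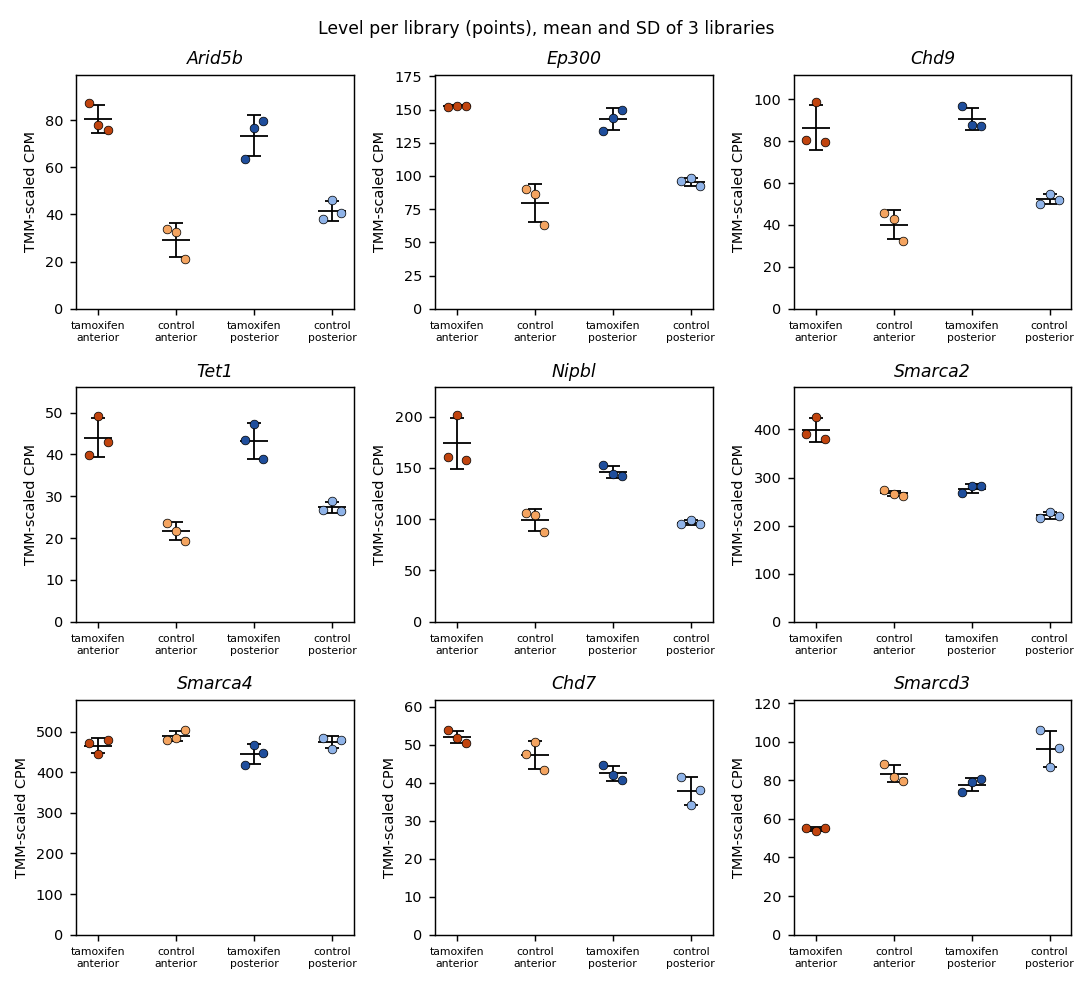
Level in TMM-scaled CPM (y axes, starting at 0) of 9 of the genes in the 4 groups (x axis), with a point for each library and bars for the mean and SD of 3 libraries. Arid5b, Ep300, Chd9, Tet1, Nipbl and Smarca2 are higher after tamoxifen without overlap in both parts, Smarcd3 is lower, and Smarca4 and Chd7 were not called on this scale.

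Of the ARID genes, which share an AT-rich interaction domain for DNA binding, 5 of 9 rose in the anterior and 7 of 9 in the posterior palate on the TMM scale. The transcripts of 8 of the 9 lie in the longest quartile by length, where the shares over all genes were 61.3% and 46.0%. Arid5b, a partner of the histone demethylase Phf2, had the largest change of all 46 genes in both parts. It lies on chromosome 10 (GRCm38.p6, 68092523 to 68279355). Arid5b stood at 87.2, 78.1 and 76.0 CPM in tamoxifen anterior libraries, against 33.7, 32.7 and 21.1 CPM in control anterior libraries. Posterior values were 63.4, 76.6 and 79.8 CPM after tamoxifen and 38.0, 46.1 and 40.6 CPM in controls. The groups were well separated in both parts, and control anterior replicate 3 was the lowest library. Arid5b rose 2.76-fold in the anterior (log2 1.47, SE 0.15, adjusted p = 4.3e-06) and 1.76-fold in the posterior palate (log2 0.82, SE 0.15, adjusted p = 0.0015). The folds after removal were 1.85 (adjusted p = 0.00011) and 1.37 (adjusted p = 0.019). The anterior call remained in all 12 fits without 1 library, at log2 fold changes of 0.76 to 0.96, and the posterior call in 8 of 12. It was lost without control posterior replicates 1 or 3 or without tamoxifen posterior replicates 2 or 3. The difference between the parts was 0.65 on the log2 scale (SE 0.21) and did not pass the test (adjusted p = 0.27).

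The BAF subunits Arid1a and Arid1b and the PBAF subunit Arid2 changed less. Arid1b rose 1.33-fold in the anterior and 1.27-fold in the posterior palate on the TMM scale, and Arid2 rose 1.53-fold and 1.32-fold. Arid1a was not called in the anterior palate (log2 0.24, adjusted p = 0.056). In the posterior palate it rose 1.21-fold (adjusted p = 0.045), with overlapping values and with that call in only 3 of the 12 fits without 1 library. Arid4a and Arid4b, partners of the retinoblastoma protein in the Sin3 complex, rose 1.22-fold and 1.64-fold in the anterior palate and 1.25-fold and 1.38-fold in the posterior palate, where the calls were kept in 8 and 9 of the 12 fits without 1 library. After removal none of these 5 genes was called higher, and Arid4a was lower in the anterior palate (log2 -0.20, adjusted p = 0.046). The rise of Arid4a on the TMM scale was lost without control anterior replicate 3 or tamoxifen anterior replicate 2. The DNA-binding factors Arid3a and Arid3b and the RNA-binding Arid5a were not called in the anterior palate on either scale. Arid3a rose 1.19-fold in the posterior palate on the TMM scale (adjusted p = 0.048), a call kept in only 1 of the 12 fits without 1 library.

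All 3 genes of the acetyltransferases and the NSL complex rose in both parts on the TMM scale. Their transcripts lie in the longest quartile by length, where 43.3% of all genes were called higher in both parts. Ep300, which acetylates histone H3 at enhancers and lies on chromosome 15 (GRCm38.p6, 81586209 to 81652077), stood at 152, 153 and 153 CPM in tamoxifen anterior libraries, against 89.9, 86.3 and 63.0 CPM in control anterior libraries. In the posterior palate it stood at 134, 144 and 150 CPM after tamoxifen and at 96.6, 98.2 and 92.2 CPM in controls. The tamoxifen anterior libraries are nearly equal, whereas control anterior replicate 3 lies below its 2 partners. The rise was 1.92-fold in the anterior (log2 0.94, SE 0.10, adjusted p = 4.2e-06) and 1.49-fold in the posterior palate (log2 0.58, SE 0.10, adjusted p = 0.0011). It remained higher after removal, 1.35-fold (adjusted p = 8.6e-05) and 1.18-fold (adjusted p = 0.017), and the posterior call was lost without control posterior replicate 3 or tamoxifen posterior replicate 3. Crebbp, the close paralogue of Ep300, rose 1.58-fold and 1.33-fold on the TMM scale. Its log2 fold changes of 0.16 and 0.07 after removal were not called. Reads of 2 such paralogues could be shared where their sequences match, and how the counting treated them is not stated in the sources used here. Kansl1, a scaffold of the NSL acetyltransferase complex, rose 1.32-fold and 1.20-fold on the TMM scale and gave log2 fold changes of 0.08 and 0.05 without a call after removal. Its posterior call was lost without control posterior replicate 3.

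Nipbl, which loads cohesin onto DNA, stood at 161, 202 and 158 CPM in tamoxifen anterior libraries, against 106, 104 and 87.2 CPM in control anterior libraries. Its posterior levels were 153, 144 and 142 CPM after tamoxifen and 95.2, 99.2 and 95.6 CPM in controls. Both parts separated fully on the TMM scale, with rises of 1.75-fold (adjusted p = 7.8e-06) and 1.51-fold (adjusted p = 0.00063). After removal the log2 fold change was 0.04 (SE 0.05) in the anterior and 0.12 (SE 0.05) in the posterior palate, and neither was called. Setd2, which trimethylates H3 lysine K36 along transcribed genes, rose 1.51-fold and 1.22-fold on the TMM scale, the posterior call being lost without control posterior replicate 3. Nsd1, which dimethylates the same residue and has a transcript of 12784 bases, rose 1.58-fold and 1.30-fold. After removal their log2 fold changes lay between -0.14 and -0.07, without a call.

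The core of PRC2 changed little. Suz12, the subunit that holds the complex together, rose 1.40-fold in the anterior palate on the TMM scale (adjusted p = 0.0021) and was not called in the posterior palate or after removal. Ezh2, the main methyltransferase of dividing cells, and Eed, which binds the methyl mark, were not called in any tamoxifen comparison on these 2 scales. Ezh1, the alternative methyltransferase, stood at 21.9, 22.3 and 21.7 CPM in tamoxifen anterior libraries, against 28.4, 24.0 and 24.6 CPM in control anterior libraries. The 2 groups did not overlap, and the fall was close to the threshold (log2 -0.22, adjusted p = 0.049), with a call in only 2 of the 12 fits without 1 library. With the trend removed Ezh1 was lower in both parts, by 0.36 in the anterior (adjusted p = 0.0035) and by 0.26 in the posterior palate (adjusted p = 0.045) on the log2 scale. The anterior call remained in all 12 fits without 1 library and the posterior call in 6 of 12.

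The TET dioxygenases, which oxidise methylcytosine, rose on the TMM scale, all 3 in both parts. All 3 lie in the longest quartile by length, where 43.3% of all genes were called higher in both parts. Tet1, with the longest transcript of the list at 14369 bases, stood at 39.9, 49.2 and 43.0 CPM in tamoxifen anterior libraries, against 23.7, 21.6 and 19.3 CPM in control anterior libraries. Posterior libraries stood at 43.4, 47.3 and 38.9 CPM after tamoxifen and at 26.7, 28.9 and 26.5 CPM in controls, so the groups were apart in both parts. The rises were 2.04-fold (adjusted p = 2.1e-06, the smallest of the list) and 1.58-fold (adjusted p = 0.0005). Tet2 rose 1.84-fold and 1.36-fold and Tet3 1.60-fold and 1.31-fold, with the posterior call of Tet2 kept in 8 of the 12 fits without 1 library. After removal, Tet1 was 1.16-fold (adjusted p = 0.044) and Tet3 1.20-fold higher (adjusted p = 0.0025) in the anterior palate, and no TET gene was called in the posterior palate. Among the DNA methyltransferases, the de novo enzyme Dnmt3a rose 1.44-fold and 1.21-fold on the TMM scale and was not called after removal. Dnmt1, which maintains methylation after replication, was not called on the TMM scale, at 390, 370 and 408 CPM in tamoxifen anterior libraries and 398, 404 and 404 CPM in control anterior libraries, which overlap. After removal its values were 368, 379 and 384 CPM against 434, 438 and 469 CPM. It was then lower in the anterior (log2 -0.24, adjusted p = 0.0016) and in the posterior palate (log2 -0.28, adjusted p = 0.0023), with these calls in all 12 fits without 1 library. Dnmt3b was not called in either part on these scales.

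The regional comparison set the anterior against the posterior palate and shares its libraries with the tamoxifen comparisons. Among controls, Chd7 and Smarca2 were higher in the anterior palate on the TMM scale, against 10.2% of all tested genes. Arid5b, Chd9, Crebbp, Setd2, Tet1 and Tet2 were lower there, against 13.1% of all genes, 23.3% in all. Among all genes of the longest quartile by length 26.4% were called lower, and of the 34 chromatin regulators in it these 6 were. With the length and GC trend removed, these 6 calls were lost. Chd7 stood at 47.6, 50.7 and 43.3 CPM in control anterior libraries and at 41.4, 34.1 and 38.1 CPM in control posterior libraries, a 1.25-fold difference without overlap (adjusted p = 0.011). Under tamoxifen, Chd7 (1.22-fold) and Smarca2 (1.44-fold, adjusted p = 2e-05) were again higher anteriorly, against 7.6% of all genes. Arid5a and Smarcd3 were lower, against 10.2% of all genes, 17.8% in all. Smarcd3 had a log2 fold change of -0.50 (adjusted p = 0.00013) and Arid5a of -0.65 (adjusted p = 0.011). Of the 6 genes called lower among controls, Tet2 alone was still called without control anterior replicate 3 and none without control posterior replicate 2, where Smarcd3 was the 1 gene of the list called lower. Without control anterior replicate 1, 11 genes were called lower. The higher call of Chd7 was lost without control anterior replicates 1 or 2 or control posterior replicate 2 among controls, and without tamoxifen anterior replicate 1 or tamoxifen posterior replicates 2 or 3 under tamoxifen.

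**Figure D5:**
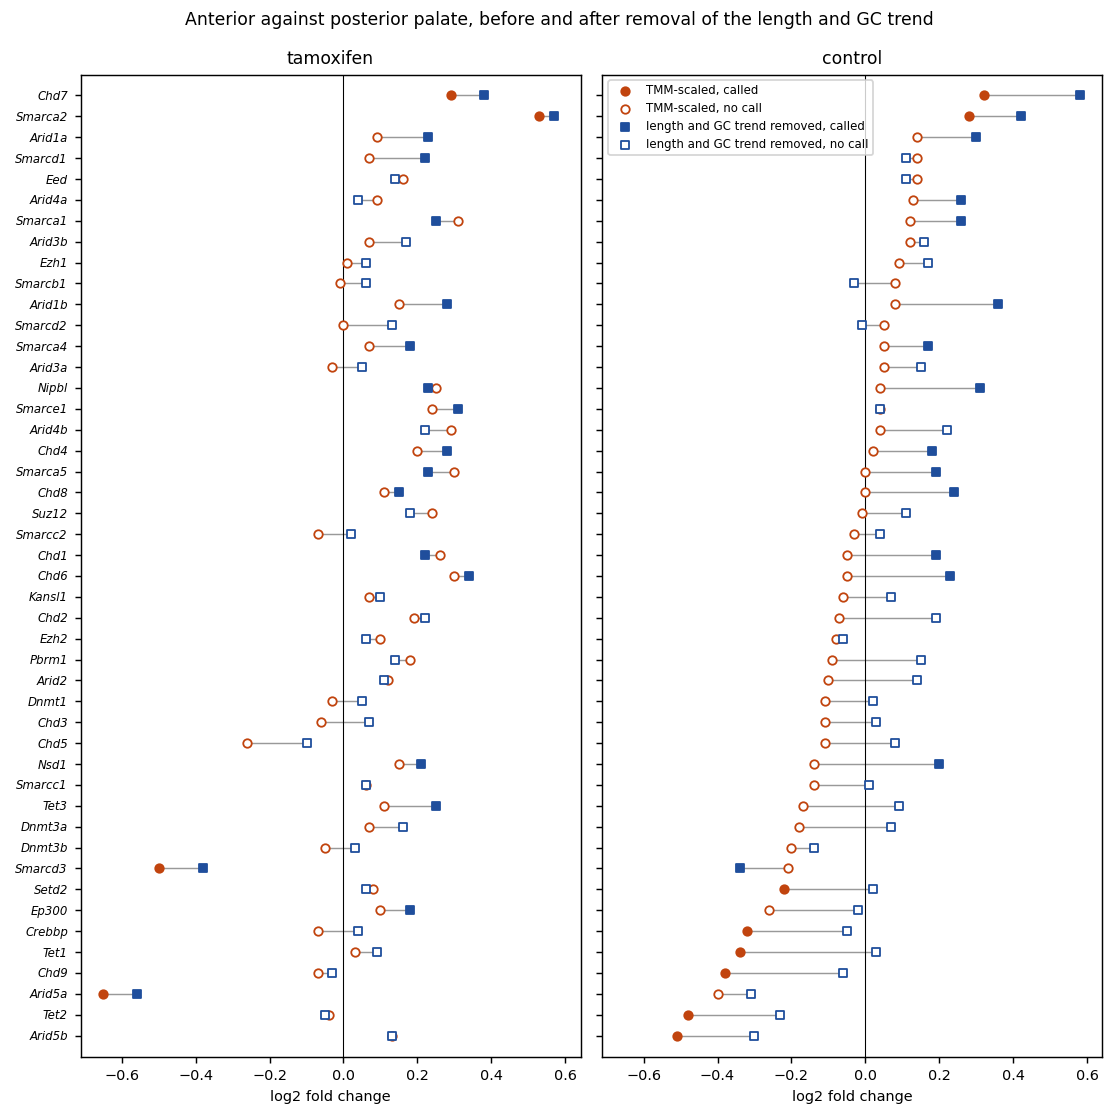
Log2 fold change (x axis) of anterior against posterior palate for each of the 46 genes (y axis, ordered by the control value on the TMM scale) under tamoxifen (left) and in controls (right). Circles are on the TMM scale and squares after removal of the length and GC trend, filled where edgeR called the gene; among controls most squares lie to the right of their circles, and Chd7 and Smarca2 are filled to the right of 0 in every case.

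With the length and GC trend removed, more of the genes were higher in the anterior palate. Among controls 14 of 46 were higher and 1 lower (Smarcd3), against 14.2% and 12.4% of all genes, 26.6% in all. Under tamoxifen 17 were higher and 2 lower (Arid5a and Smarcd3), against 14.2% and 11.2% of all genes, 25.4% in all. The median log2 fold change over the 46 genes was 0.11 among controls and 0.14 under tamoxifen, against 0.03 and 0.05 over all genes. All 4 SWI/SNF and ISWI motors and Chd1, Chd4, Chd6, Chd7 and Chd8 were higher anteriorly in both comparisons. With a length trend alone removed, Chd1, Smarca1, Smarca4 and Smarca5 were not called among controls, nor Chd8 and Smarca4 under tamoxifen. Among controls the call of Chd4 was kept in 7 of the 12 fits without 1 library and that of Smarca5 in 8. Those of Chd1, Chd6 and Smarca4 were kept in 9. Chd7 was then higher by 0.58 on the log2 scale among controls (adjusted p = 1.6e-05) and by 0.38 under tamoxifen (adjusted p = 0.0009), and Smarca2 by 0.42 and 0.57. Without control posterior replicate 2, 7 genes were called higher among controls. The call of Chd8 under tamoxifen was kept in only 3 of the 12 fits without 1 library. Epithelium markers summed to between 1010 and 1270 CPM in anterior libraries and between 547 and 782 CPM in posterior libraries, with 9 of 12 called higher in each comparison. Skeletal muscle markers were lower anteriorly in 11 of 12 in each comparison. Cartilage and bone markers summed to between 578 and 914 CPM in anterior and between 1550 and 2470 CPM in posterior libraries. Of these, 5 of 10 were lower anteriorly in each comparison, with 0 higher among controls and 1 under tamoxifen. Among neural crest and mesenchyme markers, 6 of 12 were higher and 2 lower in controls, and 5 higher and 2 lower under tamoxifen. The part of these cell types in the regional differences was not tested.

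Levels between genes were compared per transcript length, as CPM per kilobase averaged over the 12 libraries. Chd3 (183) and Chd4 (112) were the most abundant, followed by the SWI/SNF subunits Smarce1 (103) and Smarcb1 (90.0). The motor Smarca4 stood at 73.6 and Smarca2 at 49.1 on this scale. Arid1a (55.7) exceeded its alternative Arid1b (18.4), Ezh2 (46.3) exceeded Ezh1 (5.55), and Dnmt1 (69.1) and Dnmt3a (51.8) exceeded Dnmt3b (3.41). Tet3 (19.0) was the most abundant TET gene, with Tet2 at 3.70 and Tet1 at 2.37. At the low end stood Chd5 (0.688), Arid5a (1.04) and Arid3b (1.89). The 3 genes called higher in both parts after removal of the trend were of low to middle level, with Ep300 at 12.3, Arid5b at 7.40 and Chd9 at 5.61.

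Outside the 46 genes, 154 of 157 further chromatin genes in 14 lists were tested, with a median transcript of 4455 bases. On the TMM scale 69 were higher and 32 lower in the anterior palate after tamoxifen, against 25.6% and 24.0% of all genes, and 45 and 18 in the posterior palate, against 17.3% and 11.7%. The counts after removal of the trend were 28 and 29, against 13.7% and 14.6%, and 6 and 18, against 6.42% and 8.63%. The same shares over all genes apply to the lists named next, and they are not matched on length. The cohesin list, the partners of Nipbl, had 11 of 14 higher and 0 lower in the anterior palate on the TMM scale and 3 higher and 0 lower after removal. The SWI/SNF subunits outside the 46 genes had 2 of 18 higher and 6 lower, and 0 higher and 5 lower after removal. The list of PRC2 accessory genes had 4 of 9 higher and 2 lower, and 1 higher and 3 lower after removal. In it, Phf1 was lower on both scales (log2 -0.92 and -0.41). Lcor, of the same list, stood at 4.53 ± 0.161 CPM in tamoxifen anterior libraries and at 0.92 ± 0.214 CPM in control anterior libraries, 4.92-fold higher (adjusted p = 2.2e-06). The list of NuRD partners of Chd4 had 1 of 12 higher and 4 lower in the anterior palate on the TMM scale, and 2 higher and 2 lower after removal. On the TMM scale Mbd3 (log2 -0.60) and Cdk2ap1 (log2 -0.52) were lower, and Gatad2b was the 1 gene higher. Gatad2b stood at 61.0 ± 1.56 CPM in tamoxifen anterior libraries and at 22.7 ± 5.96 CPM in control anterior libraries (mean ± SD, n = 3 each), 2.69-fold higher. It remained higher with the trend removed in the anterior (log2 0.83, adjusted p = 3.8e-05) and posterior palate (log2 0.49, adjusted p = 0.0052). The acetyltransferase Kat6a stood at 227 ± 16.9 CPM and 101 ± 18.5 CPM in the same groups, 2.26-fold higher, and was higher after removal in both parts (log2 0.54 and 0.37). Its list had 4 of 8 higher and 1 lower in the anterior palate on the TMM scale, and 2 higher and 0 lower after removal.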

How the data were processed

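The 12 libraries were sequenced from RNA of palatal shelves. The authors deposited read counts per gene symbol, 1 file per library. HISAT2, StringTie and the mouse build mm9 are named in the submitters' processing notes, without versions, and neither the counting program nor the use of strand is given in the sources used here. The 46 genes and the other gene lists were chosen with earlier results of these data known.

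Genes were filtered with filterByExpr, scaled by TMM and tested with edgeR 4.0.16 (robust quasi-likelihood test, 8 residual degrees of freedom) in R 4.3.3, with all 12 libraries and 1 mean per group. Benjamini-Hochberg adjusted p-values were computed over all 15958 tested genes, and a gene was called at an adjusted p under 0.05. The standard error is the log2 fold change divided by the root of the F statistic. Length and GC fraction were read from the longest protein-coding GENCODE vM21 transcript on GRCm38, a newer build than the authors' mm9, by matching 23348 symbols directly and 651 through an older symbol. For the trend-removed fits, natural splines of length and of GC content (4 degrees of freedom each), estimated in each library on genes above a mean log2 CPM of 1, entered as an offset. Alternatives were DESeq2 1.42.0, other scalings, filters, thresholds and sets of libraries, and the replicate number as a block. Genes of the list were all nameable. Per-library values were given by smallest adjusted p, largest fold change of a family or a call that changed with the trend, and at most 3 genes per other list could be named. Replicates differed by more than counting noise, with a chi-square per degree of freedom of at least 10.09. The scripts were tested on simulated data.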

Additional observations from a re-analysis of the deposited data

How the results depend on the processing

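Scaling by relative log expression, a stricter filter and fits of only the 6 libraries compared turned no log2 fold change of the 46 genes round and moved no count of calls by more than 1.5 times. DESeq2 called 179 genes in the interaction and 7 of the 46 genes higher in the anterior palate under tamoxifen, and the fit with no filter on low counts called 4 there. At an adjusted p under 0.01, the posterior tamoxifen comparison had 15 genes of the list higher and 2215 calls over all genes. The regional comparison of controls then had 1 gene of the list higher, 0 lower and 2194 calls over all genes, and that under tamoxifen 1 higher, 1 lower and 1839 calls. With the length and GC trend removed, 7 of the 46 genes were higher among 4485 calls in the anterior tamoxifen comparison, and 3 higher and 5 lower among 2385 calls in the posterior one. The regional comparison of controls then gave 14 higher and 1 lower, and that under tamoxifen 17 higher. Lengths from the longest transcript of any kind, an alternative chosen after seeing the data, gave 7 higher and 7 lower among 5181 calls, 3 higher and 6 lower among 2831 calls, 14 higher and 1 lower, and 16 higher in these comparisons. A length trend alone gave 12 higher and 14 lower, 2 higher and 8 lower among 2400 calls, 9 higher and 1 lower, and 10 higher. Whether the replicate numbers pair the libraries was not settled. The deviations of libraries with the same number correlated between -0.057 and 0.148 in 18 pairs, 2 of them over 0.1. Both lay between anterior and posterior tamoxifen libraries (0.148 for replicate 1 and 0.138 for replicate 3, against -0.017 for replicate 2). Between anterior and posterior control libraries the values were -0.039, 0.017 and 0.08. With the replicate number as a block, 27 genes of the list were higher, 4 lower and 7800 of all genes called in the anterior tamoxifen comparison, and 23, 3 and 4561 in the posterior one. The interaction had 0 calls with the block, the regional comparison of controls 2 higher, 5 lower and 3711 in all, and that under tamoxifen 3, 2 and 2811. The block together with removal of the length and GC trend gave 7 higher among 4324 calls, 3 higher and 5 lower among 2192 calls, 1 call in the interaction, 15 higher and 1 lower in the regional comparison of controls and 16 higher under tamoxifen. Without 1 library at a time, the anterior tamoxifen comparison gave 25 to 28 higher and 3 to 4 lower of the 46 genes and 6553 to 7961 calls in all. The posterior one gave 16 to 25 higher, 2 to 3 lower and 2714 to 5485 in all, with 2714 without control posterior replicate 1, 2830 without control posterior replicate 3 and 3045 without tamoxifen posterior replicate 1. The interaction gave 0 of the list and 0 to 6 of all genes, with 6 without tamoxifen anterior replicate 3. The regional comparison of controls gave 1 to 2 higher, 1 to 11 lower and 2483 to 4342 in all, and that under tamoxifen 1 to 6 higher, 2 lower and 2090 to 3089 in all. With the trend also removed, an alternative chosen after seeing the data, the ranges were 6 to 9 higher and 5 to 9 lower, 1 to 4 higher and 4 to 8 lower, 7 to 18 higher and 1 to 2 lower, 13 to 22 higher and 2 lower, and 0 in the interaction. The reversals given here are log2 fold changes of genes called on the TMM scale or under the alternative; of the 46 genes, the sign changed with the length and GC trend removed for 14 in the anterior and 17 in the posterior tamoxifen comparison and for 20 in the regional comparison of controls, of which 12, 6 and 6 were so called. It changed for 8 in the regional comparison under tamoxifen and 11 in the interaction, 0 of them called. With the length and GC trend removed, and within 0.01 of it with the block added, the sign turned round in the anterior tamoxifen comparison for Chd2 (-0.08), Chd4 (-0.08), Chd7 (-0.37), Chd8 (-0.39), Smarca5 (-0.07), Smarcc1 (-0.06), Smarcd2 (0.22), Arid1b (-0.05), Arid2 (-0.05), Arid4a (-0.20), Setd2 (-0.10) and Nsd1 (-0.07). It turned round in the posterior tamoxifen comparison for Chd2 (-0.10), Chd8 (-0.30), Arid2 (-0.01), Setd2 (-0.14), Nsd1 (-0.08) and Dnmt3a (-0.04). It turned round in the regional comparison of controls for Chd1 (0.19), Chd6 (0.23), Smarca5 (0.19), Setd2 (0.02), Nsd1 (0.20) and Tet1 (0.03). With the block, Chd2 stood at -0.07 in the anterior comparison. With the longest transcript of any kind, it turned round in the anterior tamoxifen comparison for Chd2 (-0.06), Chd4 (-0.05), Chd7 (-0.36), Chd8 (-0.37), Smarca5 (-0.03), Smarcc1 (-0.02), Smarcd2 (0.25), Arid1b (-0.04), Arid2 (-0.04), Arid4a (-0.15), Setd2 (-0.09) and Nsd1 (-0.07). It turned round in the posterior tamoxifen comparison for Chd2 (-0.10), Chd8 (-0.28), Arid2 (-0.01), Setd2 (-0.13), Nsd1 (-0.08) and Dnmt3a (-0.03). It turned round in the regional comparison of controls for Chd1 (0.18), Chd6 (0.22), Setd2 (0.01), Nsd1 (0.20) and Tet1 (0.03). With the length trend alone removed, it turned round in the anterior tamoxifen comparison for Chd2 (-0.05), Chd3 (-0.45), Chd4 (-0.24), Chd5 (-0.60), Chd7 (-0.49), Chd8 (-0.40), Smarcc1 (-0.00), Arid1a (-0.32), Arid1b (-0.25), Arid4a (-0.00), Nsd1 (-0.02) and Dnmt3a (-0.10). It turned round in the posterior tamoxifen comparison for Chd2 (-0.09), Chd3 (-0.32), Chd4 (-0.26), Chd8 (-0.30), Arid1a (-0.08), Arid1b (-0.07), Setd2 (-0.07), Nsd1 (-0.06), Dnmt3a (-0.11) and Tet3 (-0.02). It turned round in the regional comparison of controls for Chd6 (0.22), Setd2 (0.00), Nsd1 (0.19) and Tet1 (0.01). These reversals arose where a trend was removed from the same counts, and the cause of the trend itself was not tested.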
